A study of Mus musculus with 12 samples.

Results

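Immunoglobulin variable (V) genes encode the part of an antibody chain that meets the antigen. The deposited table lists 344 genes whose symbols begin with Ighv (heavy chain), Igkv (kappa light chain) or Iglv (lambda light chain). The 87 genes described here are those with a mean level of at least 10 normalized counts over all 12 libraries, so they were chosen by measured levels, without regard to treatment. They comprise 31 of 183 heavy chain genes, 53 of 158 kappa genes and 3 of 3 lambda genes. Of the 87, 4 are annotated as pseudogenes in GENCODE vM21. Of the 257 genes below the threshold, 133 had at least 1 read and 124 had none. Just inside it were Ighv3-2 and Igkv9-124 at means of 10.01 and Ighv10-3 at 10.2, and just outside it were Ighv14-3 and Ighv8-8 at 9.97 and Ighv1-18 at 9.92. The 87 genes held between 88.8% and 93.4% of the summed V signal of a library.

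The libraries were made from polyadenylated RNA of distal ileum of BALB/c mice, an inbred strain. There were 6 from animals treated with Porphyromonas gingivalis, an oral bacterium linked to gum disease, and 6 from PBS (saline) controls, named below by group and replicate number. No other allele or agent is given for either group, nor are the age, dose, route or duration. The labels do not say whether each library is a separate mouse, so the spread and the p-values are those between these samples, which may in part be technical. Total reads per library ran from 6553306 to 10378841, of which 0.0280% to 0.0579% fell on the 87 genes, or 2762 to 5249 reads.

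In a developing B cell, a heavy chain V gene and either a kappa or a lambda V gene are each joined to short J segments (and, in the heavy chain, a D segment) and expressed with a constant region, so the V gene in a transcript marks the cell that made it and all of its descendants. The small intestine is known for its many plasma cells, antibody-secreting descendants of B cells that mostly make IgA. In laboratory mice most antibodies carry a kappa light chain and the lambda locus holds few V genes. In bulk tissue, a V gene carried by few cells that each make much RNA cannot be told apart from one carried by many cells, and fewer cells cannot be told apart from less RNA per cell.

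V genes arose by repeated duplication, which bears on how reads are given to them. The lines below show the last 150 bases of the annotated transcript of 3 much-used genes and of the gene highest in a single library relative to its median, each with its nearest listed relative. Sequences are those of GENCODE vM21 on GRCm38 in the sense direction, and capitals mark the bases at which the pair differs.
Iglv1: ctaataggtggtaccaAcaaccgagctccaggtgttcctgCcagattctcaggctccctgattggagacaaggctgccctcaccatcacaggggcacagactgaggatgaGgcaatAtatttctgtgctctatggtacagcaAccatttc
Iglv2: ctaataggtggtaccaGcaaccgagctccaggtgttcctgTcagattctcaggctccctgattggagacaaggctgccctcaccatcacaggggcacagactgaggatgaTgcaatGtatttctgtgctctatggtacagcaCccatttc
Igkv12-41: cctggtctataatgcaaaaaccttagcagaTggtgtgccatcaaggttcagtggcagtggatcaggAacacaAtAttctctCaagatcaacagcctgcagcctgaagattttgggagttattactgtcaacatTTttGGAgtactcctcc
Igkv12-44: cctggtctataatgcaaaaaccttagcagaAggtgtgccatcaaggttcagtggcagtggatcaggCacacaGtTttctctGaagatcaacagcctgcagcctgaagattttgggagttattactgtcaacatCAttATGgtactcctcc
Igkv1-110: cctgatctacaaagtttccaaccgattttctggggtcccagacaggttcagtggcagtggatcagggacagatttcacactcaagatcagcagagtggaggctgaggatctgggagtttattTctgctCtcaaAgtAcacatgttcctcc
Igkv1-117: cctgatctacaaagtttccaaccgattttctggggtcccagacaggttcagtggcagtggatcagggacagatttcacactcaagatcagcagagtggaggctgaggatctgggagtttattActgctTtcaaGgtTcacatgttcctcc
Igkv3-4: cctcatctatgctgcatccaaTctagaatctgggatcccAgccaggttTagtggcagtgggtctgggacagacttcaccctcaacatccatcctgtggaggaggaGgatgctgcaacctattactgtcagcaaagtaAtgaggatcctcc
Igkv3-3: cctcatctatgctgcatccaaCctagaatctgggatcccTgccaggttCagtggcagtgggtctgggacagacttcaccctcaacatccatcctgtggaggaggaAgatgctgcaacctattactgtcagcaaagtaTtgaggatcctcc
Iglv1 (chr16:19085017-19085500, minus strand) and Iglv2 (chr16:19260401-19260859, minus strand) differed at 12 of 366 aligned transcript bases, an identity of 96.7%. The kappa genes lie on chromosome 6. Igkv12-41 (chr6:69858420-69858884, minus strand) and Igkv12-44 (chr6:69814631-69815154, minus strand) differed at 15 of 347 bases. In that pair 5 of the 10 differences shown lie in the 23 bases after the conserved cysteine codon, where the third antigen-contact loop begins. Igkv1-110 (chr6:68270485-68271267, plus strand) and Igkv1-117 (chr6:68121046-68121827, plus strand) differed at 10 of 401 bases. Igkv3-4 (chr6:70671788-70672377, plus strand) and Igkv3-3 (chr6:70686946-70687534, plus strand) differed at 21 of 359 bases, and Igkv3-3 had no read in any library. A listed relative of at least 95% identity existed for 37 of the 87 genes (42.5%), and for 114 of the 255 genes below the threshold that have an annotated transcript (44.7%). Among heavy chain genes such a relative existed for 10 of 31 members (32.3%) and 70 of 152 genes below the threshold (46.1%). Among kappa genes it existed for 25 of 53 members (47.2%) and 44 of 103 genes below the threshold (42.7%). The counting method is not given in the sources used here, and GRCm38 is the sequence of another strain, C57BL/6J, so the split of reads between close relatives is uncertain. The members' annotated transcripts are 347 to 480 bases long. A share is given here on reads, not per length; dividing by length moved no share by more than 1.16 percentage points.

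V gene usage was spread more evenly in the P. gingivalis libraries than in 5 of the 6 PBS libraries, and less evenly than in the remaining one. Evenness was taken as Pielou's index, the Shannon entropy of the 87 shares over its maximum, which is 1 when all genes have equal shares. It was 0.876, 0.858, 0.867, 0.868, 0.880 and 0.870 in P. gingivalis replicates 1 to 6, against 0.789, 0.844, 0.848, 0.841, 0.805 and 0.903 in PBS replicates 1 to 6. The groups overlapped through PBS replicate 6, the most even of the 12 libraries. The 3 most even libraries, P. gingivalis replicates 5 and 1 and PBS replicate 6, were also the 3 with almost no Fabp6, the ileal bile acid binding protein gene: 16.002 and 2.52 normalized counts in P. gingivalis replicates 5 and 1 and 4.32 in PBS replicate 6, against 11246 or more in the other 9. Fabp1, another epithelial gene, was high in the same 3, at 21996, 26745 and 16938 normalized counts in that order. It was at 18.3 to 1821 in the other 9, so the 3 differ from them by more than 1 gene. Without those 3 libraries the ranges were 0.858 to 0.870 in P. gingivalis libraries and 0.789 to 0.848 in PBS libraries, and the difference in means was 0.040. That these ranges do not overlap was fixed by the choice. PBS replicate 6 was the only PBS library above the lowest P. gingivalis value, and the 3 were left out after seeing the data. The part of these 3 libraries in the evenness was not tested. The means were 0.870 ± 0.008 in P. gingivalis libraries and 0.838 ± 0.040 in PBS libraries (SD, n = 6 each), a difference of 0.031, which is less than the SD of the PBS libraries. No p-value is given, since evenness is a score over chosen genes. Expressed as the number of equally used genes that would give the same entropy, usage corresponded to 46.1 to 50.9 genes in P. gingivalis libraries and 33.9 to 56.4 genes in PBS libraries.

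**Figure D1:**
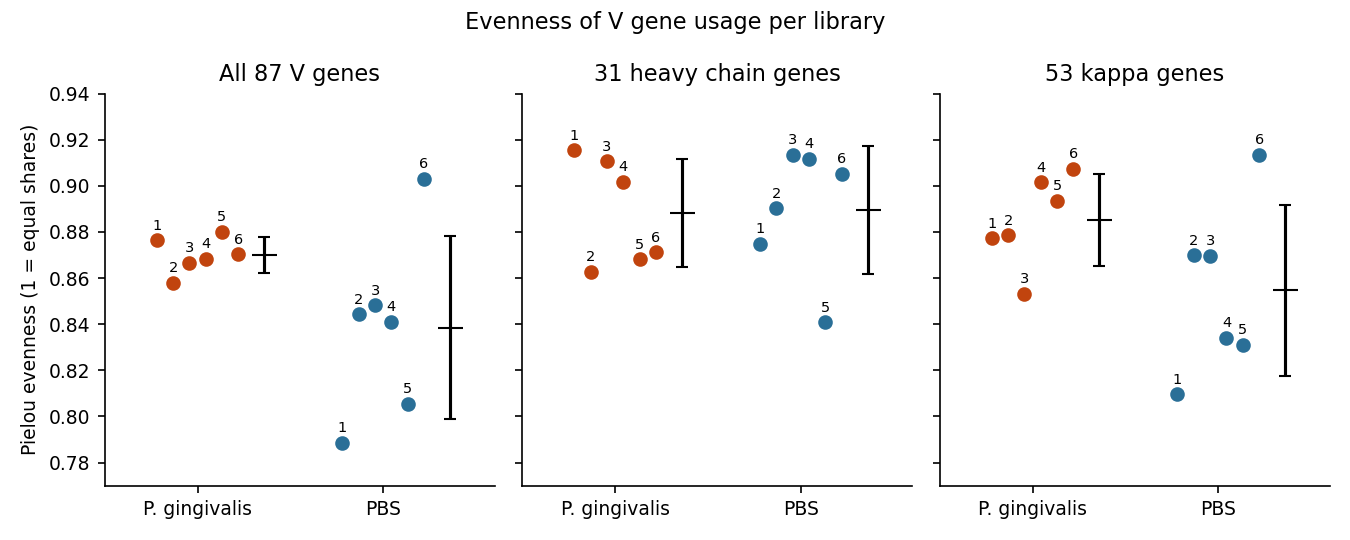
Pielou evenness of V gene usage (vertical axis, no unit, not starting at 0) for all 87 genes, for the 31 heavy chain genes and for the 53 kappa genes. Each point is a library with its replicate number, and the bar beside each group is the mean ± SD (n = 6). Over all genes the 6 P. gingivalis libraries lie between 0.858 and 0.880, while PBS libraries run from 0.789 to 0.903.

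A like difference in evenness was found over kappa genes and not over heavy chain genes. Over the 53 kappa genes alone, evenness averaged 0.885 ± 0.020 in P. gingivalis libraries and 0.855 ± 0.037 in PBS libraries, with PBS replicates 1, 4 and 5 below the lowest P. gingivalis library and PBS replicate 6 above the highest. Over the 31 heavy chain genes alone, it averaged 0.888 ± 0.023 in P. gingivalis libraries and 0.889 ± 0.028 in PBS libraries (SD, n = 6 each). That difference of -0.0011 was small beside the spread within either group. Whether the kappa and heavy chain differences themselves differ was not tested.

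The most used genes placed the libraries in a like order. The number of genes needed to reach 50% of the V signal was 12 to 15 in P. gingivalis libraries and 7 to 16 in PBS libraries. The 10 most used genes of a library held 39.7% to 46.7% of its signal after P. gingivalis and 38.2% to 57.0% in PBS libraries. PBS replicates 1 and 5 stood at the concentrated end, with 57.0% and 56.4%, and PBS replicate 6 at the other end, with 38.2%.

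**Figure D2:**
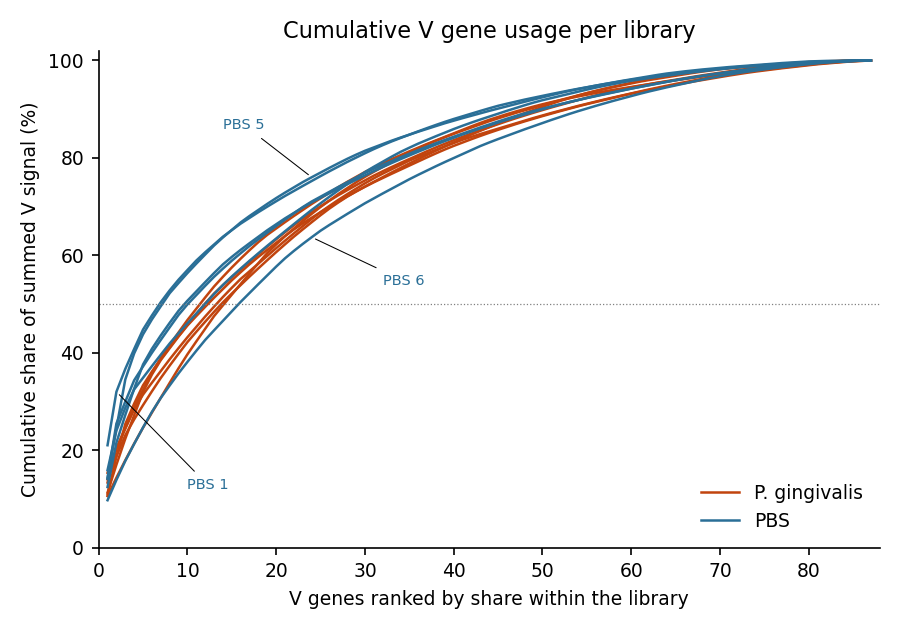
Cumulative share of the summed V signal (vertical axis, percent) over the V genes ranked by share within each library (horizontal axis). Each line is a library and the dotted line marks 50%. PBS replicates 1 and 5 reach it with 7 and 8 genes, the P. gingivalis libraries with 12 to 15, and PBS replicate 6 with 16.

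A single lambda gene led 11 of the 12 libraries. Iglv1 held 11.3%, 13.4%, 10.9%, 15.4%, 10.6% and 14.1% of the V signal in P. gingivalis replicates 1 to 6, against 21.1%, 15.9%, 12.5%, 14.4%, 10.4% and 9.77% in PBS replicates 1 to 6. The highest and the lowest share were both in PBS libraries, and the groups overlapped. Of the 87 genes it had the smallest coefficient of variation of levels within groups, 29.2%. Its mean level differed by -0.03 on the log2 scale (SE 0.21) between P. gingivalis and PBS libraries.

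Iglv2, the close relative of Iglv1, was the most used gene of PBS replicate 5. It held 1.66%, 3.58%, 1.61%, 2.13%, 2.86% and 1.37% in P. gingivalis replicates 1 to 6, against 2.19%, 1.47%, 9.10%, 4.39%, 14.2% and 1.70% in PBS replicates 1 to 6. PBS replicates 3, 4 and 5 lay above every P. gingivalis library, and the other 3 PBS libraries lay among them. Iglv3, the third lambda gene, held under 0.4% in 11 libraries and 0.913% in PBS replicate 6.

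Together the 3 lambda genes held 15.1 ± 2.13% of the V signal in P. gingivalis libraries and 19.9 ± 4.53% in PBS libraries (SD, n = 6 each). The values ran from 12.9% to 17.7% after P. gingivalis and from 12.4% to 24.8% in PBS libraries, where replicate 6 was lowest. Kappa genes held 57.3 ± 3.72% after P. gingivalis and 54.9 ± 4.51% in PBS libraries, and heavy chain genes held 27.6 ± 3.33% after P. gingivalis and 25.3 ± 1.98% in PBS libraries. The lambda difference of -4.80 percentage points was larger than the SD of either group. The kappa difference of 2.43 was smaller than both SDs, and the heavy chain difference of 2.37 lay between the SDs of its groups. The ranges of the groups overlapped for each.

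The constant region genes, which the choice of V genes did not use, gave a second reading of light chain use. Lambda constant genes (Iglc1, Iglc2 and Iglc3) made up 16.7 ± 3.07% of the light chain constant signal in P. gingivalis libraries and 20.4 ± 4.69% in PBS libraries. PBS replicate 6 was again the lowest at 13.3%. The lambda V shares above are of all V signal, heavy chain included. Of light chain V signal alone, lambda genes held 20.9 ± 2.98% after P. gingivalis and 26.6 ± 5.98% in PBS libraries. On that base the V shares were above the constant gene shares in both groups. In the mouse lambda locus Iglv1 is known to join to the J segments beside Iglc1 and Iglc3, and Iglv2 mostly to the one beside Iglc2. Across the 12 libraries the levels of Iglv1 and Iglc1 had a Pearson r of 0.96 (permutation p = 2e-05 from 100000 resamples; adjusted over 9 V and constant gene pairs, 0.00018). Spearman's rho was 0.89 (permutation p = 0.00027, adjusted 0.00243). The relation held within each group, with r = 0.82 in P. gingivalis libraries and r = 0.9995 in PBS libraries (n = 6 each). Without PBS replicates 1 and 5, the farthest from the median, r was 0.90.

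Iglv2 and Iglc2 had a Pearson r of 0.98 (permutation p = 0.00017, adjusted 0.000765) and a Spearman rho of 0.69 (permutation p = 0.0155, adjusted 0.0699). Here the value rested on few libraries. Without PBS replicates 3 and 5 r was 0.76, and it was 0.36 within P. gingivalis libraries, where Iglv2 levels spanned only 51.3 to 122 normalized counts. In the PBS group r was 0.9967 and the span was 56.0 to 430 normalized counts. None of the other 7 pairs passed, with adjusted permutation p-values of 0.178 or more for either coefficient. Among these, Iglv1 with Iglc3, a pair that is known to join, had an r of 0.20 (permutation p = 0.533, adjusted 0.686) and a rho of 0.19, and r was -0.26 without PBS replicates 1 and 5. Iglv1 with Iglc2 had an r of -0.40 and Iglv2 with Iglc1 an r of -0.40.

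**Figure D3:**
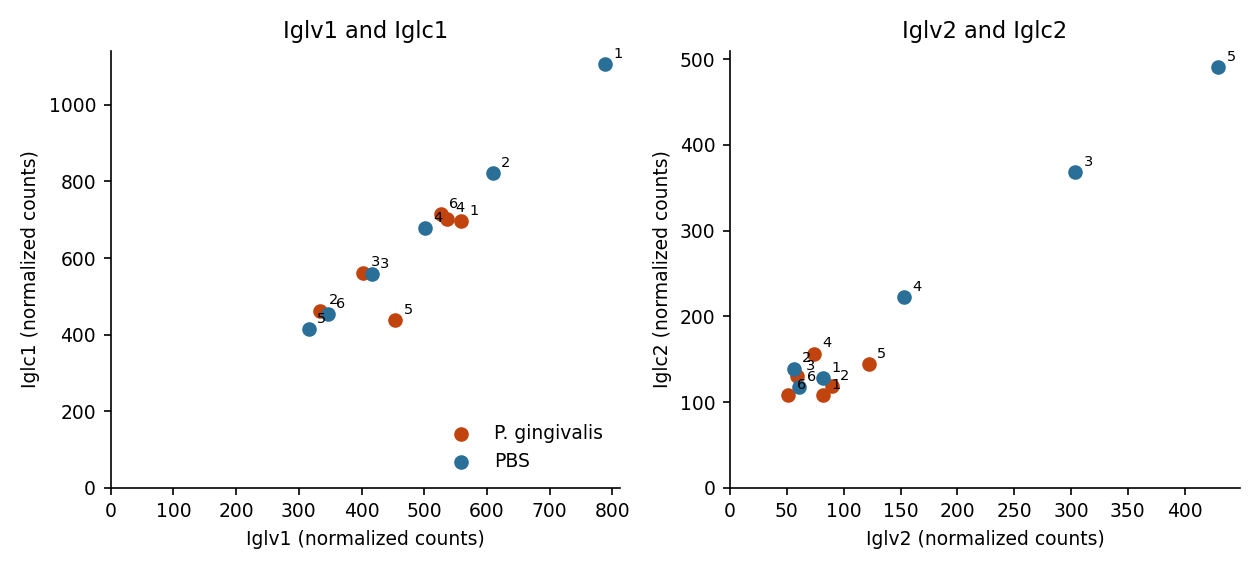
Levels of Iglv1 against Iglc1 (left) and of Iglv2 against Iglc2 (right), in normalized counts on both axes. Each point is a library with its replicate number. PBS replicates 3 and 5 have the highest Iglv2 levels, 304 and 430, and also the highest Iglc2 levels.

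Below Iglv1, the second place changed from library to library. Igkv12-41, a kappa gene, held 5.73%, 0.290%, 6.68%, 0.206%, 3.77% and 2.93% in P. gingivalis replicates 1 to 6, against 11.0%, 2.01%, 4.96%, 11.1%, 9.95% and 0.487% in PBS replicates 1 to 6. The extremes, 6 of 2916 V reads in P. gingivalis replicate 4 (exact 95% interval 0.0755% to 0.447%) and 402 of 3618 in PBS replicate 4 (10.1% to 12.2%), lie far outside counting error. These intervals cover counting error only. High and low libraries occurred in both groups, and its level differed by -1.18 on the log2 scale with an SE of 1.03. Its relative Igkv12-44 held 2.97%, 0.290%, 0.805%, 0.549%, 1.55% and 0.743% in P. gingivalis replicates 1 to 6 and 0.304% to 1.24% in PBS libraries. It was below 1.3% in PBS replicates 1, 4 and 5, where Igkv12-41 held 9.95% to 11.1%.

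Igkv1-110 was second in 5 libraries. It held 4.76%, 6.99%, 7.76%, 4.97%, 2.65% and 4.71% in P. gingivalis replicates 1 to 6, against 1.01%, 4.67%, 5.67%, 4.48%, 2.10% and 4.17% in PBS replicates 1 to 6. The 5 genes of its family, Igkv1, held 11.7 ± 2.65% of the V signal in P. gingivalis libraries and 7.21 ± 3.02% in PBS libraries (SD, n = 6 each), with overlapping ranges of 7.70% to 15.8% and 2.82% to 10.4%. All 3 of the much-used members of that family had positive level differences: Igkv1-110 0.73 (SE 0.37), Igkv1-117 0.69 (SE 0.35) and Igkv1-135 0.93 (SE 0.42) on the log2 scale, none past the adjusted threshold. The Igkv12 family, with 3 genes here, held 5.31 ± 2.97% after P. gingivalis and 8.65 ± 4.88% in PBS libraries. The largest kappa family by number, Igkv4, with 9 of 31 listed genes, held 7.96 ± 2.57% after P. gingivalis and 8.22 ± 2.80% in PBS libraries.

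**Figure D4:**
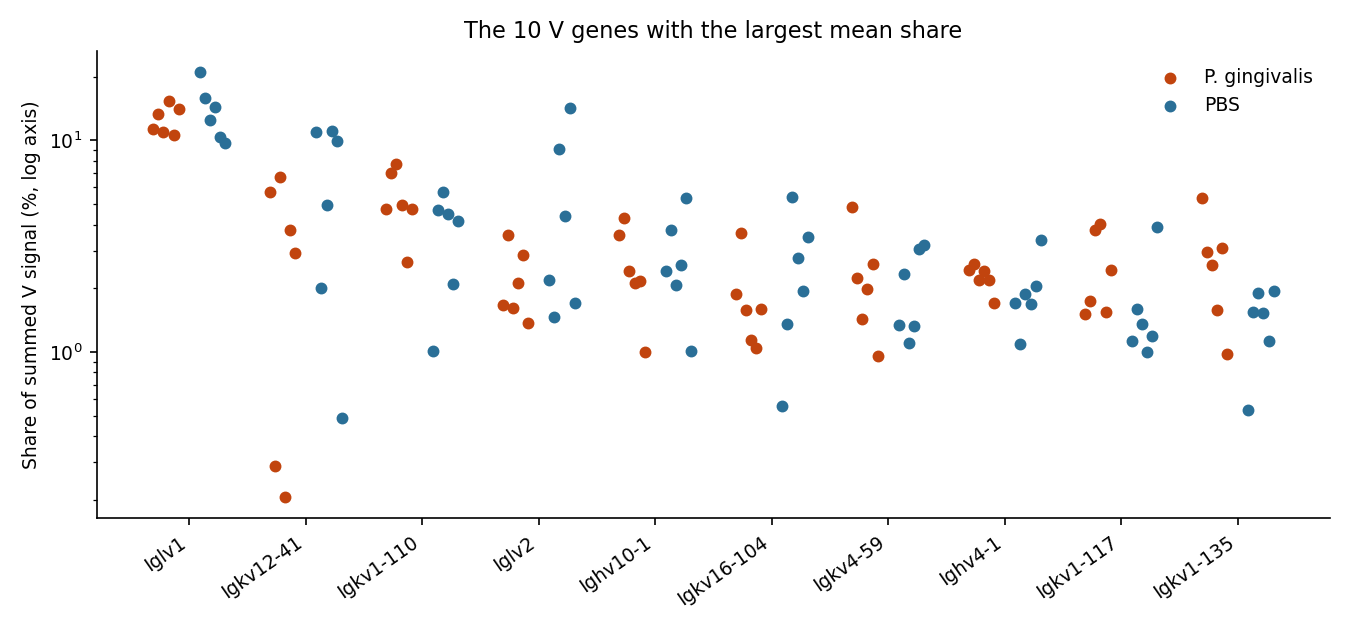
Share of the summed V signal (vertical axis, percent, log axis) for the 10 V genes with the largest mean share. Each point is a library, P. gingivalis left and PBS right within each gene. Iglv1 stays between 9.77% and 21.1%, whereas Igkv12-41 runs from 0.206% to 11.1%, and the groups overlap for each gene.

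Heavy chain usage had no such leader. Ighv10-1 (chr12:114479005-114479451, minus strand) was the most used on average, with 3.58%, 4.27%, 2.42%, 2.13%, 2.17% and 0.9986% of all V signal in P. gingivalis replicates 1 to 6, against 2.42%, 3.78%, 2.07%, 2.57%, 5.35% and 1.004% in PBS replicates 1 to 6. Ighv4-1 (chr12:113948282-113948796, minus strand) varied less, between 1.70% and 2.61% after P. gingivalis and between 1.09% and 3.38% in PBS libraries. Ighv1-11 and Ighv3-6 followed, with mean shares of 1.99 ± 0.85% and 1.82 ± 0.84% in P. gingivalis libraries and 1.76 ± 1.03% and 1.93 ± 1.57% in PBS libraries. The groups overlapped for all 4.

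The heavy chain genes that passed the threshold lay almost wholly on one side of the locus. Ordered by GRCm38 coordinate, the 91 listed genes between 113572927 and 114647056 on chromosome 12, the side nearer the J and constant segments, included 59 with a read and 30 of the 31 members, and took 88.2% of heavy V reads over all libraries. The 92 genes beyond them included 1 member, Ighv1-63 (chr12:115495625-115496058, minus strand), while 55 of them had a read. Ighv1, the largest family with 92 listed genes, had 5 members and held 3.62 ± 1.48% of V signal in P. gingivalis libraries and 3.56 ± 0.99% in PBS libraries. The kappa locus had no such split: 23 of 78 genes were members on the side of lower coordinates and 30 of 78 on the other. How far close relatives, or the difference between the BALB/c and reference loci, enter these counts was not tested.

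V gene levels had a larger spread between libraries of the same group than most other genes had. The median coefficient of variation of levels within groups was 74.1% over the 87 genes (range 29.2% to 205%), beside 18.4% over all genes tested and 19.7% over 11501 tested genes in the same range of mean levels. The chi-square per degree of freedom, which is near 1 for counting error alone, had a median of 14.8 for the V genes (range 1.80 to 149) and 3.03 for the genes in that range. Those genes were not matched to the V genes by level within the range, and both measures depend on level. The comparison is a description of chosen genes, with no test.

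Several kappa genes were high in 1 or a few libraries and low in most. Igkv3-4 held 8.12% in PBS replicate 2 (299 of 3682 V reads, exact 95% interval 7.26% to 9.05%). It held 4.21% in P. gingivalis replicate 3 and 2.47% in PBS replicate 3, with a median of 0.38% over all libraries. Igkv3-10 held 3.25% and Igkv4-80 2.39% in P. gingivalis replicate 6, 16.5 and 11.6 times their medians. Igkv6-13 held 2.12% in PBS replicate 2, 12.7 times its median, and Igkv8-21 held 3.92% in PBS replicate 5, 11.3 times its median. Igkv4-68 was high in a library of each group, with 2.74% in P. gingivalis replicate 6 and 2.56% in PBS replicate 6. These 6 genes have the largest ratios of highest to median share among the 87, and all are kappa genes.

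**Figure D5:**
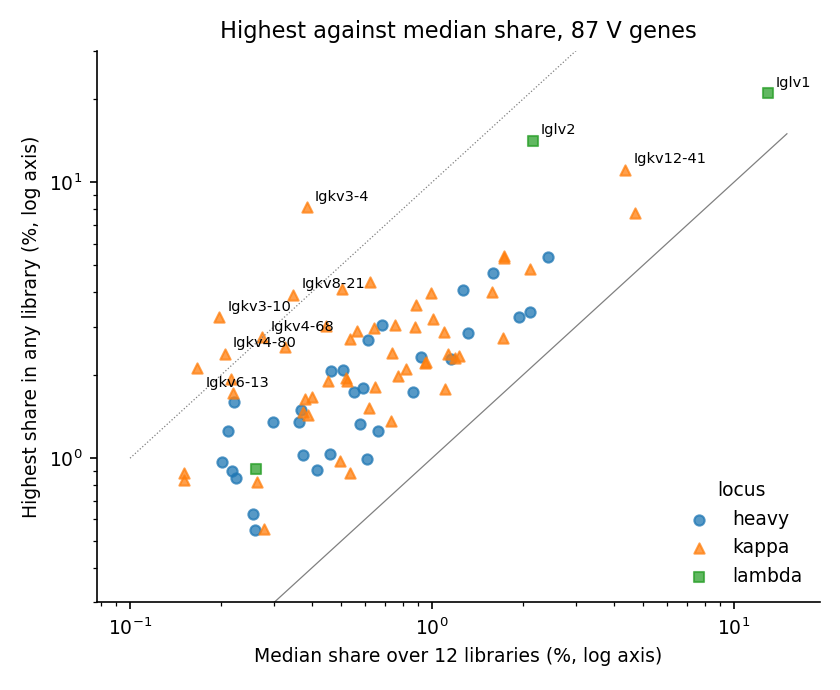
Highest share in any library against the median share over the 12 libraries for the 87 V genes, both in percent on log axes, with the locus shown by symbol. The solid line marks equality and the dotted line 10 times the median. The 6 genes on or above the dotted line are kappa genes, with Igkv3-4 at 8.12% against a median of 0.38%.

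Pairs of libraries were compared by the overlap of their shares, which is 100% when all shares are equal. The 15 pairs of P. gingivalis libraries had a median overlap of 69.1% (63.5% to 74.1%), the 15 pairs of PBS libraries 62.1% (51.1% to 72.0%) and the 36 pairs across groups 65.3% (54.5% to 72.9%). Pairs share libraries, so no test is given. The median across groups lay between the medians within each group, while the ranges overlapped. PBS replicates 1 and 5 had the lowest median overlap with the other libraries, 59.2% and 61.0%. Over heavy chain genes alone the medians were 71.1% for P. gingivalis pairs, 66.7% for PBS pairs and 68.2% across groups.

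No V gene passed the test between groups. In limma on log2(normalized count + 1) over 15025 genes, with Benjamini-Hochberg adjustment, 0 of the 87 genes had an adjusted p under 0.05, and 0% of all genes tested did. At an unadjusted p under 0.05 there were 13 V genes, 12 of them higher in P. gingivalis libraries (13.8%, against 1.57% of all genes) and 1 lower (1.15%, against 2.16%). This count was 8 without P. gingivalis replicate 1, 7 without PBS replicate 4 and 20 without PBS replicate 6. On recovered reads, edgeR called 0 of 72 V genes (12 at an unadjusted p under 0.05), with 0% of 14907 genes called, and DESeq2 called 0 of 86 (18 at an unadjusted p under 0.05), with 0.151% of 20596 genes called. In no V gene did the levels of the groups separate completely, which 0.0932% of all genes tested did with P. gingivalis higher and 0.0732% with P. gingivalis lower.

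The direction of the differences varied with the locus, the libraries included and the method. Positive log2 differences were found in 59 of the 87 genes (40 of 53 kappa, 19 of 31 heavy and 0 of 3 lambda), beside 48.9% of all genes tested, and the median difference was 0.17 beside -0.00 for all genes. Without P. gingivalis replicate 1 the number was 47 and the median 0.06. Without the 3 libraries with almost no Fabp6 the number was 46 of 87 and the median 0.06, and 0 of 87 genes were called. On recovered reads, edgeR gave positive differences in 40 of 72 V genes (55.6%, beside 52.1% of all its genes). DESeq2 gave them in 51 of 86 (59.3%, beside 52.5% of all its genes).

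The smallest p-values were those of Igkv6-32 and Ighv2-2. Igkv6-32 had 80.7, 32.5, 19.7, 13.2, 12.6 and 30.4 normalized counts in P. gingivalis replicates 1 to 6, against 14.3, 2.08, 22.7, 8.65, 4.18 and 3.24 in PBS replicates 1 to 6. The log2 difference was 1.75 (SE 0.54, limma adjusted p = 0.855), and 2 PBS libraries lay within the P. gingivalis range. Ighv2-2 had 66.8, 57.9, 23.01, 63.4, 130 and 25.2 normalized counts in P. gingivalis replicates 1 to 6, against 23.6, 2.08, 17.99, 24.04, 28.4 and 14.04 in PBS replicates 1 to 6. Its log2 difference was 1.73 (SE 0.54, limma adjusted p = 0.855; DESeq2 adjusted p = 0.0961, the smallest of any V gene there), and PBS replicates 1, 4 and 5 lay within the P. gingivalis range.

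Igkv1-88 was at 5.42 to 63.6 normalized counts in P. gingivalis libraries and 0 to 26.5 in PBS libraries, a log2 difference of 2.39 (SE 0.76, limma adjusted p = 0.918). Ighv6-6, Igkv8-27 and Igkv17-127 had log2 differences of 0.83 (SE 0.27), 0.85 (SE 0.33) and 0.94 (SE 0.36). On the lower side Ighv3-8 had 2.39 to 18.3 normalized counts in P. gingivalis libraries and 6.48 to 47.1 in PBS libraries, a log2 difference of -1.20 (SE 0.52, limma adjusted p = 0.992). Igkv17-121, Igkv12-46, Igkv3-7, Ighv9-3 and Iglv2 had differences between -0.61 and -1.30, each with an unadjusted p above 0.06. None of these genes separated the groups.

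The total V signal stood in a similar ratio to the constant genes in both groups. Kappa V signal was 0.515 ± 0.036 of the level of Igkc, the kappa constant gene, in P. gingivalis libraries and 0.493 ± 0.040 in PBS libraries, and heavy V signal was 0.155 ± 0.023 of the summed heavy constant signal in P. gingivalis libraries and 0.150 ± 0.015 in PBS libraries (SD, n = 6 each). Igha, the IgA constant gene, made up 82.7% to 95.1% of heavy constant signal in P. gingivalis libraries and 83.1% to 95.1% in PBS libraries. The defining plasma cell genes, among them Jchain and Mzb1, were present in all 12 libraries. Jchain ran from 2067 to 3894 normalized counts and Mzb1 from 26.2 to 58.6. The plasma cell list, of which 11 genes were tested, did not include Jchain. The mean log2 level over those 11 genes was 6.92 to 7.19 after P. gingivalis and 6.85 to 7.23 in PBS libraries.

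Genes of other B lineage cells varied between libraries of both groups. The mean log2 level over 13 B cell genes (Cr2 and others) was 4.29, 3.604, 6.07, 6.41, 4.43 and 6.00 in P. gingivalis replicates 1 to 6, against 6.15, 3.54, 3.72, 3.33, 3.88 and 6.28 in PBS replicates 1 to 6. The least and the most even PBS libraries, replicates 1 and 6, were both among those with high B cell genes, and the part of these genes in V gene usage was not tested. In limma, 13 of 13 B cell genes, 7 of 11 plasma cell genes and 8 of 11 constant and J chain genes had positive differences. So had 4 of 4 germinal centre genes tested, of 8 listed, and 6 of 6 T cell genes tested, of 10 listed. None passed the adjusted threshold. The mean log2 level over the 4 germinal centre genes ran only from 5.89 to 6.50 over the 12 libraries, beside 3.33 to 6.41 for the B cell genes. None of 6 fat cell genes had a positive difference: the median was -4.64 on the log2 scale, 6 of 6 had an unadjusted p under 0.05 (smallest limma adjusted p = 0.228), and their summed level was 101 to 1974 normalized counts in P. gingivalis libraries and 1096 to 5813 in PBS libraries. Adipoq and Plin1, which define fat cells, were at 0 in P. gingivalis replicates 1 to 3. None of 6 smooth muscle genes had a positive difference either, with a median of -0.53 and 3 of 6 at an unadjusted p under 0.05. The part of this tissue in V gene usage was not tested. None of 7 genes of receptor assembly, among them Rag1 and Rag2, which cut the V, D and J segments, reached the mean of 10 needed for testing.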

How the data were processed

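RNA of distal ileum was purified on columns and sequenced from TruSeq libraries, per the labels' protocols. HISAT2, Cufflinks, DESeq2, FastQC and the mouse build GRCm38 appear in the submitters' processing notes, with no version. How reads were counted, on which strand and with which annotation is not given in the sources used here, so antisense and overlapping genes are uncertain. The deposited values are a signal: counts per gene after scaling by the authors with a size factor for each library, as read from the table and its values. Dividing each library by its smallest step gave whole reads for 100% of values (tolerance 0.001 reads), and on these reads edgeR called 0 of 14907 genes.

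Shares were taken over the 87 V genes with a mean of at least 10 in the 12 libraries. Differences in level were tested in limma (3.58.1, under R 4.3.3) with its trend option, on log2(value + 1) over the 15025 genes with a mean of at least 10, two-sided, with Benjamini-Hochberg adjustment; fold changes on this scale understate those of low genes. The fit was tested on simulated data in which only genes with a mean of at least 50 were changed, a level that 16 of the 87 V genes reach. The simulated spread was smaller than the median spread of the V genes, so that test does not show the power for them. Alternatives were other pseudocounts and filters, TMM, scaling to the V signal, sample weights, a replicate block, edgeR 4.0.16, DESeq2 1.42.0, other V gene sets and each library left out; leaving out 3 libraries and dividing by length were added after seeing the data. Named genes are the 10 with the largest mean share, the most used gene of each library and 4 of each locus, the 6 smallest p-values each way, the 6 largest ratios of highest to median share and the 3 genes on each side of the threshold; their relatives, Ighv1-63 and constant genes were named beside them. Members, lists and tests were chosen with earlier results of these data known. Identities come from pairwise alignment in Biopython 1.88 of GENCODE vM21 transcripts, which were matched by symbol for 342 of 344 V genes.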

Additional observations from a re-analysis of the deposited data

Results flagged for a closer look

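Of 88 sets of 6 libraries examined (library measures and the shares of the named V genes within a group), 14 held a library whose gap to its nearest neighbour took up more of the group's range than Dixon's 95% critical value for 6 values. For independent, normally distributed values about 1 in 20 would do so. Shares cannot fall below 0 and the sets depend on each other, so the 14 cannot be set against that rate. Each flagged value was the highest of its group. In P. gingivalis libraries, Igkv3-4 was at 4.21% in replicate 3 (next 0.480%). Replicate 6 of that group held Igkv3-10 at 3.25% (next 0.412%), Igkv4-80 at 2.39% (next 0.230%) and Igkv4-68 at 2.74% (next 0.865%). Igkv16-104 was at 3.66% in replicate 2 and Ighv3-6 at 3.42% in replicate 5. In PBS libraries, replicate 2 held Igkv3-4 at 8.12% (next 2.47%) and Igkv6-13 at 2.12% (next 0.213%), and replicate 5 held Igkv8-21 at 3.92% (next 0.498%). PBS replicate 6 was high for Igkv1-117 at 3.89%, Igkv4-68 at 2.56% and Iglv3 at 0.913%. PBS replicate 3 was high for Igkv1-88 at 0.794% and for the ratio of kappa V signal to Igkc at 0.570 (next 0.497). The 6 genes chosen for a large ratio of highest to median share were bound to give such gaps.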

How the results depend on the processing

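Of 732 recomputed values, 724 stayed on the same side of any threshold and within the spread allowed (1 SD between replicates, 1.5 times for a count or, for the median log2 difference of V genes, the median SE of a gene), 8 moved further and 0 changed sign past a threshold. That median was 0.17 and ran from 0.06 without P. gingivalis replicate 1 to 0.31 with sample weights. The evenness difference was 0.030 to 0.043 with other V gene sets, 0.022 to 0.044 with a library left out and 0.033 per length, but -0.0011 over heavy chain genes alone. The median likeness across groups was a Spearman correlation of 0.465 in place of the overlap of 65.3%. No V gene was called in any of the limma, edgeR or DESeq2 alternatives. With a filter at a mean of 20, 8 of the 59 V genes then tested had an unadjusted p under 0.05, against 13 of 87; with members of a mean of at least 50 the share differences of Igkv1-110 and Igkv1-135 were 3.75 and 2.78 percentage points. The sample numbers gave no sign of a pairing of the groups: deviations of same-numbered libraries over all genes tested correlated at -0.54 to 0.08. The best match of P. gingivalis replicates 1 and 5 was PBS replicate 6, which like them had almost no Fabp6. Such differences between libraries enter this check, so it cannot exclude a pairing. With a replicate block 0 V genes were called and 15 had an unadjusted p under 0.05. One read was worth 0.019% to 0.036% of the V signal of a library, and a gene with no read may hold up to 0.109% of it (3 reads).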
